A study of Mus musculus with 12 samples.

Results

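Mouse liver expression arrays were searched for features that were lower without hepatocyte FoxO in the fasted and in the refed state alike, and whose control level moved little between these states. A feature was a member if every knockout value lay below every control value within fasted and within refed arrays, if the control mean exceeded the knockout mean by 0.6 log2 or more in both states, and if the control means of the states differed by under 0.6 log2. A difference of 0.6 log2 is about 1.52-fold, the size of the smallest member. Of 23238 features, 98 met the rule (0.422%). GEO's platform annotation gave a single gene for 85 of them, covering 84 genes because Zc3h6 had a pair of features. A further 2 members carried several genes and 11 had no entry, and these 13 are left unnamed.

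FoxO1, FoxO3 and FoxO4 are forkhead transcription factors that bind DNA in the nucleus of the fasted hepatocyte. After a meal insulin activates Akt, which phosphorylates them and sends them out of the nucleus. In liver they are known for genes of glucose production, triglyceride handling, autophagy and growth arrest.

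The mice carried a hepatocyte-specific deletion of the 3 FoxO genes (L-FoxO1,3,4, here called the knockout) or were littermates without it (WT), all on a mixed C57BL/6J and 129 background. They were sampled after 22 h without food or after 4 h of refeeding, which gave 4 groups of 3 arrays: WT-fasted, L-FoxO1,3,4-fasted, WT-refed and L-FoxO1,3,4-refed. Cohorts were matched for age and sex, but ages, sexes, the Cre driver and the deleted exons are not stated in the labels. Nothing in the labels says that each array was a separate animal, so p-values reflect how far these arrays differ, whatever part of that is technical. Other liver cells keep FoxO by design, and in whole liver fewer cells of a type and less RNA per cell cannot be told apart.

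The hepatocyte genes Alb, Ttr and Hnf4a, the 3 of 6 hepatocyte markers measured under their own name, had a mean log2 level per array of 13.27 to 13.42, with overlapping ranges in all 4 groups. Foxo1 values were 9.53, 9.65 and 9.48 in fasted WT against 9.18, 9.33 and 9.41 in fasted knockout livers, and 9.04, 9.02 and 8.84 against 8.47, 8.35 and 8.91 after refeeding. The fasted groups did not overlap and the refed groups did; over both states Foxo1 missed the threshold (log2 difference -0.32, SE 0.102, limma adjusted p = 0.112). Foxo3 (log2 difference -0.14, limma adjusted p = 0.457) and Foxo4 (-0.0019, limma adjusted p = 0.998) missed it too. Which exons these features cover was not known, so they do not check the deletion, and groups are named by their labels. Refed knockout replicate 1 stood apart from the other arrays: its highest correlation with any of them was 0.976, against 0.987 to 0.989 for the rest. It is also the only array whose title carries a suffix, _2, which the labels do not explain, and whether it was a repeat is not known. The rule applied without it gave 122 features, of which 93 were among the 98.

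The promoters of 4 members with a forkhead-type motif are shown because they belong to well-known FoxO targets, Txnip and Ccng2, and to the paired sterol transporter genes Abcg5 and Abcg8, whose upstream windows overlap. RefSeq windows of 300 bases were found for 68 of the 84 member genes (build GRCm38.p6), and the 250 bases before the start site are printed, 5′ to 3′ on the gene's strand. Capitals mark a match on either strand to 1 of 3 motifs. The first was the forkhead core TGTTTAC. A variant of it that ends in another base, TGTTTAT, was searched as well. The last was the insulin response type of core, TGTTTTG. Matches to different motifs were allowed to overlap.
Txnip (chr3:96557707-96557956, plus strand): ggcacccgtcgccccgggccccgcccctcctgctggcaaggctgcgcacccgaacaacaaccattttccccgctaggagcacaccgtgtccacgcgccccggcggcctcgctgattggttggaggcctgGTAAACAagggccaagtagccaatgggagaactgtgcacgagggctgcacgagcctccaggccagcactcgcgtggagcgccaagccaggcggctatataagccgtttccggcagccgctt
Ccng2 (chr5:93267323-93267572, plus strand): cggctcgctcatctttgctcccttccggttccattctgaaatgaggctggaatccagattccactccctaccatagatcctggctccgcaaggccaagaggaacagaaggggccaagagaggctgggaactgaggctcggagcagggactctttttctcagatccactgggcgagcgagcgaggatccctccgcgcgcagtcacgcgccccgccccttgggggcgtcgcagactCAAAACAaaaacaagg
Abcg5 (chr17:84683012-84683261, minus strand): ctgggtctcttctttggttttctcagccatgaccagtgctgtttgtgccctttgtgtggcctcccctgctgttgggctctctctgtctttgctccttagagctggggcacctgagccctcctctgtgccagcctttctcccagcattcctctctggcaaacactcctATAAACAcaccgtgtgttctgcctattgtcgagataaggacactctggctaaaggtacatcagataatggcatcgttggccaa
Abcg8 (chr17:84682871-84683120, plus strand): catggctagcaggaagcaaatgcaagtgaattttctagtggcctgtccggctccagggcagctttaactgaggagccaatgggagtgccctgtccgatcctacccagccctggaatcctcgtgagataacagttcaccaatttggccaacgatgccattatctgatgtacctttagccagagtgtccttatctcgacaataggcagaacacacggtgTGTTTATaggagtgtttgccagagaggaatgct
Txnip holds GTAAACA, the reverse complement of TGTTTAC, 121 bases before its start. Ccng2 holds CAAAACA, the reverse complement of TGTTTTG, 16 bases before its start. The matches of Abcg5 and Abcg8 are the same bases read from opposite strands, 83 bases before the start of Abcg5 and 33 before that of Abcg8. TGTTTAC was found in the windows of 4 of the 68 genes (5.88%), against 3.55% of 11830 measured genes and 4.05% of all 27025 genes with a window. TGTTTAT was found in 5 (7.35%, against 4.31% and 5.28%) and TGTTTTG in 6 (8.82%, against 5.62% and 7.20%). At least 1 of the 3 was found for 14 of the 68 genes (20.6%, against 12.5% and 15.1%), and no test was made of these shares. The site shared by Abcg5 and Abcg8 counts for both genes, in the 5 and in the 14. Counted per window, at least 1 motif was found in 18.2% of 88 member windows, against 13.5% of all 32851 windows. A match is a string of letters and no evidence of binding.

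The 98 members fell by a median of 1.72-fold in fasted knockout livers (log2 difference 0.79, range 0.60 to 2.09) and 1.87-fold in refed ones (0.90, range 0.60 to 2.11). The medians over all features were 0.00 and 0.03. These sizes follow from the rule and are a description without a test. The fall reached 2-fold or more in 29 members when fasted and in 34 when refed, and it reached 1 log2 in both states in 18. It was larger in refed livers for 65 members and in fasted livers for 33. The matching share of all features was not counted, and their medians above lean slightly the same way. Nothing about the members is read from this count. In 81 members all 6 knockout values lay below all 6 WT values, a stricter order than the rule asked for, met by 1.46% of all features. The rule's limits on overlap, genotype difference and WT feeding difference favour this order. The share of all features is thus no baseline for it. For comparison, fasted knockout values lay below fasted WT values without overlap in 7.46% of features, refed ones in 12.1% and both in 2.42%.

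**Figure D1:**
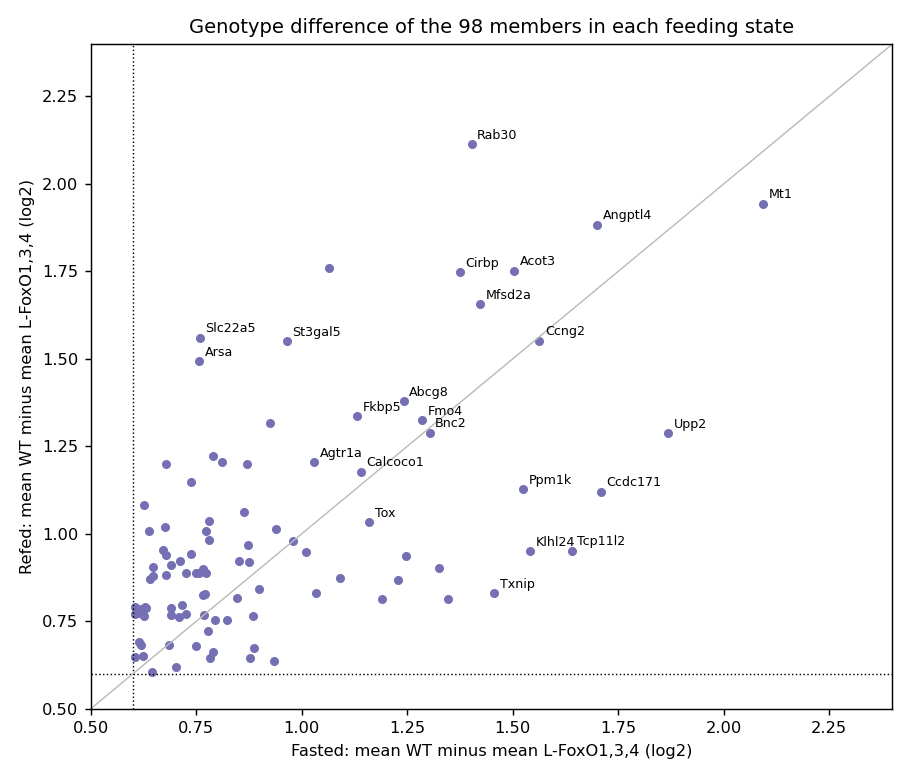
WT minus knockout log2 difference of the 98 members in fasted (x) and refed livers (y), 1 point per feature, with the 0.6 limits dotted and the line of equality in grey. Rab30 had the largest refed difference (2.11), Mt1 the largest fasted one (2.09), and 65 points lie above the line. The matching share of all features was not counted.

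The members below are the 25 named ones with the largest difference, each ranked by its smaller value of the 2 states. Mt1, the zinc-binding metallothionein (feature 6978291), led the list. Its log2 values were 12.64, 12.54 and 12.26 in fasted WT and 9.83, 9.32 and 12.02 in fasted knockout livers. They were 13.55, 12.92 and 12.56 in refed WT and 10.26, 11.63 and 11.30 in refed knockout livers. Fasted knockout replicate 3 thus lay only 0.24 below the lowest WT value, and the others of its group lay over 2 log2 below WT. The mean fall was 4.27-fold when fasted and 3.85-fold when refed. Metallothionein genes have close copies, and probes shared with one would mix their signals.

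Angptl4, a secreted inhibitor of lipoprotein lipase (feature 6854971), gave 9.90, 10.54 and 10.13 in fasted WT and 8.46, 7.99 and 9.02 in fasted knockout livers. After refeeding it gave 10.20, 10.22 and 10.09 in WT and 7.78, 8.77 and 8.30 in knockout livers. Its groups were 0.89 and 1.32 log2 apart at their nearest values, and its mean fall was 3.25-fold when fasted and 3.69-fold when refed. WT hardly differed between the states (log2 difference -0.02), a difference the rule held under 0.6 in every member.

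Ccng2, an unconventional cyclin linked to growth arrest (feature 6932540), had values of 6.33, 6.74 and 7.09 in fasted WT and 5.16, 5.06 and 5.25 in fasted knockout livers. In refed livers they were 7.26, 6.99 and 7.19 in WT and 4.92, 6.29 and 5.58 in knockout samples. The fall was 2.96-fold in one state and 2.93-fold in the other. Fasted knockout livers were tightly grouped (SD 0.0936, n = 3), and refed ones were spread over 1 log2 or more (SD 0.685, n = 3).

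Rab30, a small GTPase of the Golgi (feature 6962577), showed the widest separation after refeeding. Fasted values were 7.74, 8.11 and 8.43 in WT and 6.80, 6.56 and 6.71 in knockout livers. Refed values were 8.33, 8.52 and 8.71 in WT and 6.51, 6.48 and 6.23 in knockout livers, a gap of 1.82 log2 between the nearest arrays. The fall was 2.64-fold fasted and 4.33-fold refed, so 23.1% of the WT signal remained after refeeding.

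Mfsd2a, the transporter of lysophosphatidylcholine carrying omega-3 fatty acids (feature 6925149), was measured at 11.03, 11.57 and 11.28 in fasted WT and 10.07, 9.91 and 9.63 in fasted knockout livers. Refed livers gave 11.91, 12.01 and 11.70 in WT and 9.78, 10.67 and 10.19 in knockout samples. Its WT difference between the states (0.58) was the nearest of all members to the limit of 0.6. Acot3, a peroxisomal acyl-CoA thioesterase (feature 6796567), fell 2.84-fold and 3.37-fold. Its values were 10.53, 10.48 and 9.21 in fasted WT against 8.87, 8.76 and 8.07 in knockout livers, so fasted WT replicate 3 was much nearer to the knockout group than its mates. Acot3 belongs to a cluster of close copies, and its signal may be shared with them.

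**Figure D2:**
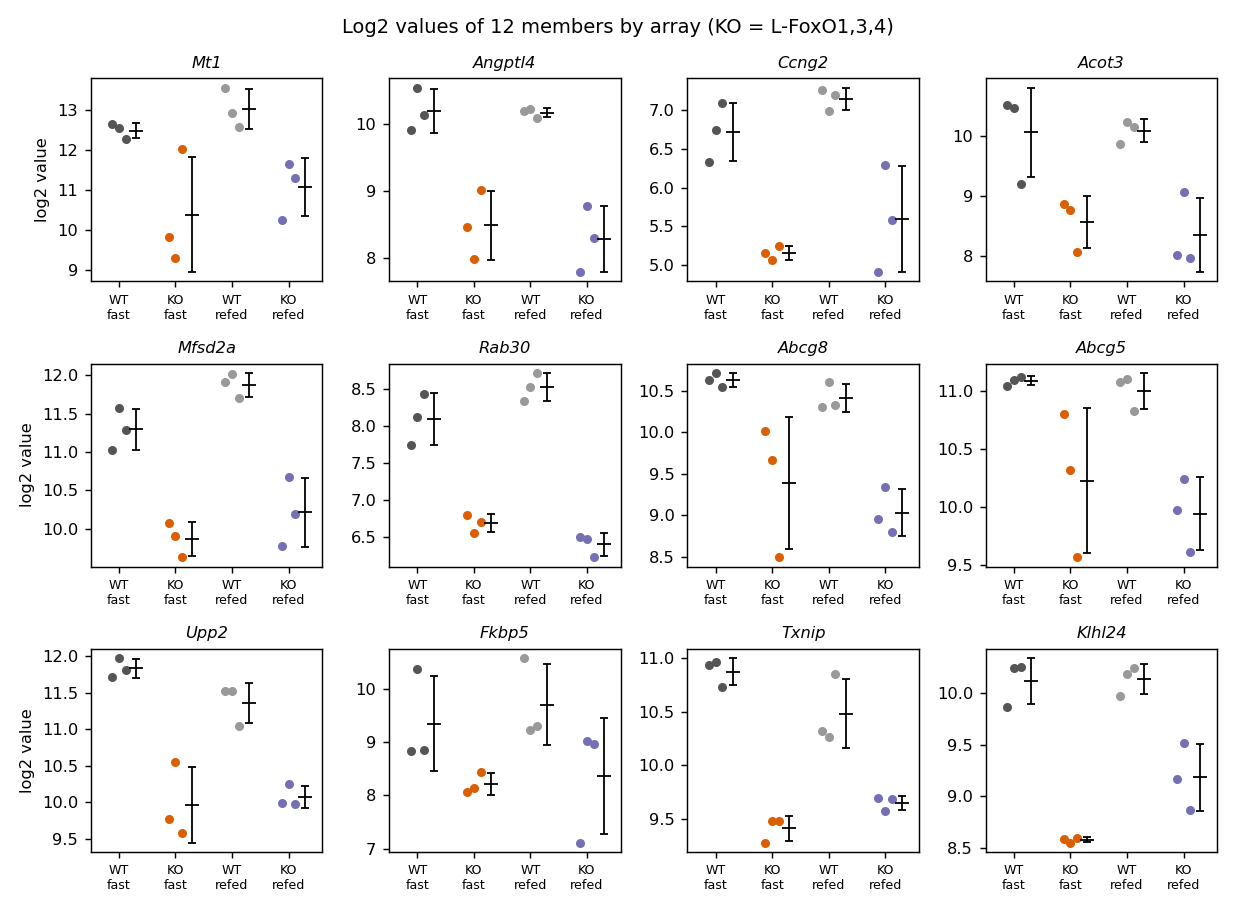
Log2 values of 12 members in each array (points), with the mean and SD of each group of 3 beside them; scales differ between panels. The rule requires that no knockout point lies above a WT point of the same feeding state. Single arrays set much of the spread in Mt1, Fkbp5 and Acot3.

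Members of lipid and sterol handling numbered 13, with median log2 differences of 0.90 when fasted and 1.38 when refed. The role groups were drawn up after the members were known, and for members only. No share of all features stands beside the counts of this or the later groups, so they do not show that a role is over-represented. Abcg5 and Abcg8 form the dimer that secretes sterols into bile. Abcg8 values were 10.63, 10.72 and 10.55 in fasted WT against 10.01, 9.66 and 8.49 in knockout livers, and 10.30, 10.61 and 10.32 against 8.96, 9.34 and 8.79 when refed. Abcg5, added after its values were seen, was at 11.05, 11.10 and 11.12 against 10.80, 10.32 and 9.56, and 11.08, 11.11 and 10.83 against 9.97, 10.24 and 9.61. Both genes were lowest in the same knockout arrays, replicate 3 of each state. These arrays were the lowest of their group for most members (64 when fasted and 56 when refed). This order is thus not particular to the pair. St3gal5, which makes the ganglioside GM3, fell 1.95-fold fasted and 2.93-fold refed. Several others of this group ranked below the 25 and were added after their values were seen. Slc22a5, the carnitine transporter, fell 1.69-fold and 2.95-fold, and Arsa, a lysosomal sulfatase of sulfatides, fell 1.69-fold and 2.82-fold. Lpin2, a phosphatidate phosphatase, fell 2.51-fold and 1.87-fold. Mylip, the ubiquitin ligase that sends the LDL receptor to degradation, fell 1.71-fold and 1.85-fold. Lpcat3, which places polyunsaturated fatty acids in phospholipids, fell 1.72-fold and 1.57-fold, and Eci2, an enoyl-CoA isomerase, 1.86-fold and 1.79-fold.

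Other metabolic, metal and redox members numbered 14, with median log2 differences of 0.74 and 0.86. Upp2, a uridine phosphorylase of liver (feature 6877398), fell from 11.83 ± 0.132 to 9.97 ± 0.517 when fasted and from 11.36 ± 0.277 to 10.07 ± 0.154 when refed (log2, SD, n = 3). Ppm1k, the phosphatase that activates branched-chain ketoacid breakdown, fell 2.88-fold and 2.19-fold, and Fmo4, a flavin monooxygenase, 2.44-fold and 2.51-fold. Txnip, an arrestin that binds thioredoxin and limits glucose uptake (added after its values were seen), was at 10.93, 10.96 and 10.73 in fasted WT and 9.28, 9.49 and 9.48 in fasted knockout livers. When refed it was at 10.32, 10.27 and 10.85 against 9.70, 9.58 and 9.68. Its knockout arrays were closely grouped in both states. Pdk2, a kinase that restrains pyruvate dehydrogenase and likewise added later, sat at the lower limit of the rule, with 1.56-fold and 1.52-fold.

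Members of autophagy, ubiquitin and membrane traffic numbered 10, with median log2 differences of 0.83 and 0.94. Calcoco1, an autophagy receptor for the endoplasmic reticulum (feature 6838754), was at 9.62, 9.72 and 9.72 in fasted WT and 8.64, 8.74 and 8.27 in fasted knockout livers. Its fall was 2.21-fold fasted and 2.26-fold refed. Klhl24, a substrate adaptor of a cullin ubiquitin ligase, was at 8.59, 8.55 and 8.60 in fasted knockout livers (SD 0.023, n = 3), against 9.87, 10.24 and 10.26 in WT. Plekhf1, an endosomal phosphoinositide-binding protein, fell 2.37-fold and 1.92-fold, and Fbxo31, an F-box protein, 1.90-fold and 2.49-fold. Retreg1, which also marks the endoplasmic reticulum for autophagy, and Wdr45, of the early autophagosome, were added after their values were seen, with 1.57-fold and 1.87-fold, and 1.61-fold and 1.70-fold.

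Transcription and RNA members numbered 14 features of 13 genes. Cirbp, the cold-inducible RNA-binding protein, fell 2.59-fold fasted and 3.36-fold refed, from 8.15 ± 0.349 to 6.78 ± 0.481 and from 8.33 ± 0.255 to 6.58 ± 0.321 (log2, SD, n = 3). Bnc2, a zinc finger protein, fell 2.47-fold and 2.44-fold, and Tox, an HMG-box protein, 2.23-fold and 2.05-fold. The nearest values of refed Tox were only 0.01 apart. Outside the 25, and added after their values were seen, Nr1i2 encodes the xenobiotic receptor PXR and Crebrf a regulator of the CREB3 family. Nr1i2 fell 1.61-fold and 1.88-fold, with refed arrays only 0.02 apart at the nearest. Crebrf fell 1.85-fold and 1.70-fold.

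Receptors, signalling and transport numbered 13. Agtr1a, the angiotensin II receptor, fell 2.04-fold and 2.31-fold, and Slc7a2, a cationic amino acid transporter, 1.92-fold and 2.02-fold. Fkbp5, a co-chaperone of the glucocorticoid receptor and itself glucocorticoid-induced, varied widely. Its values were 8.82, 10.37 and 8.84 in fasted WT against 8.06, 8.14 and 8.44 in knockout livers, and 10.58, 9.22 and 9.29 against 7.12, 9.01 and 8.96 when refed. A single WT array in each state lay more than 1 log2 above its mates. Adcy6 and Adcy9, adenylate cyclases chosen after their values were seen, fell 1.60-fold and 1.92-fold, and 1.53-fold and 1.62-fold. Cell cycle, growth and DNA repair numbered 8, among them Ccng2 and, added likewise, Cdk2 (1.55-fold and 1.73-fold) and the kinase Pim3 (1.60-fold and 2.30-fold). The last 13 genes were not placed in a group. Those among the 25 were Ccdc171 (3.27-fold and 2.17-fold), Tcp11l2 (3.12-fold and 1.93-fold), N4bp2l1 (2.01-fold and 1.93-fold) and Csrp3, a muscle LIM protein (1.97-fold in both).

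Across the members the knockout mean was 23.4% to 65.8% of the WT mean when fasted, with a median of 58.0%. It was 23.1% to 65.8% when refed, with a median of 53.5%. The upper ends are set by the rule. RMA values of dim features compress ratios, and signal over background was not analysed here, so a residual may be background in part. All 98 members passed a filter on the dimmest 30% of features (mean log2 level under 4.38). The mean of the dimmer of the 2 Zc3h6 features was below that level in knockout livers of both states, 3.99 and 4.08.

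The residual differed between knockout livers across the members as a whole. Median residuals were 64.9%, 57.0% and 50.5% of the WT mean in fasted replicates 1, 2 and 3, and 53.2%, 61.4% and 46.1% in refed replicates 1, 2 and 3. Fasted replicate 1 was the highest knockout array of its group for 69 members (70.4%, against 41.9% of all features). Fasted replicate 3 was the lowest of its group for 64 (65.3%, against 34.99%). Refed replicate 2 was the highest of its group for 67 (68.4%, against 41.3%), and refed replicate 3 was the lowest for 56 (57.1%, against 32.7%). WT arrays also moved as a set: fasted WT replicate 1 was the lowest of its group for 65 members (66.3%, against 43.8%), at a median of 90.4% of the group mean.

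**Figure D3:**
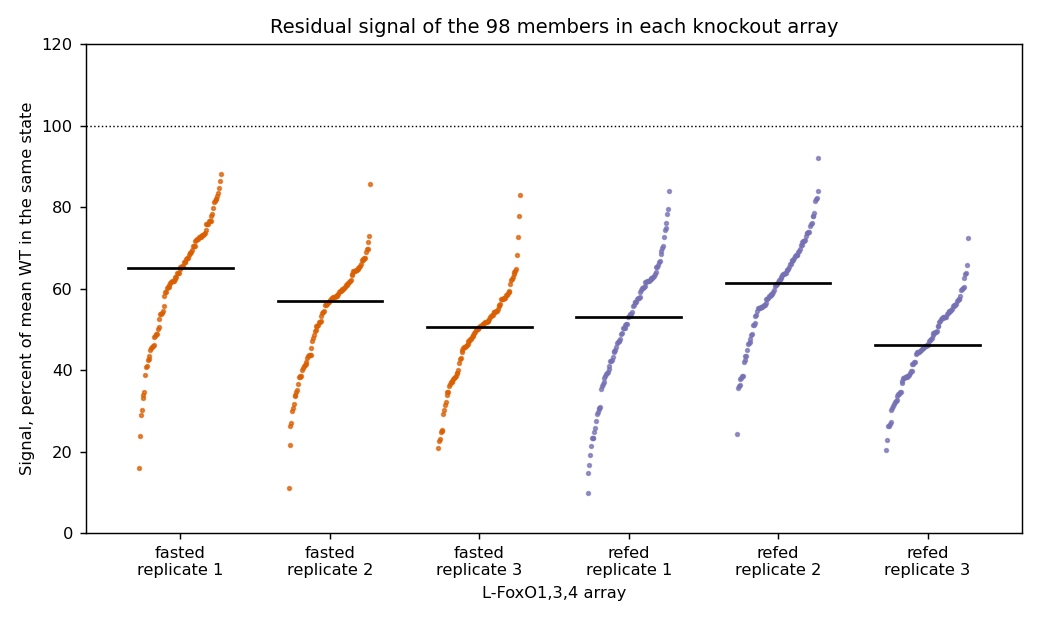
Signal of each member (points, sorted) in each knockout array, as percent of the WT mean of the same feeding state (y), with the array's median as a bar and 100% dotted. Medians run from 46.1% in refed replicate 3 to 64.9% in fasted replicate 1. By the rule no point can reach 100%.

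Members were more variable in knockout than in WT livers. The median SD over members was 0.26 in fasted and 0.33 in refed knockout livers, against 0.20 and 0.19 in WT (log2, n = 3 per group). Over all features these medians were 0.17, 0.21, 0.17 and 0.16. The knockout SD exceeded the WT SD in 56 members when fasted (57.1%, against 49.1% of all features) and in 72 when refed (73.5%, against 60.8%). The rule bears on spread, since it forbids overlap, so these values are descriptive.

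Refeeding was set against fasting within the knockout, a contrast on which the rule placed no limit although it read the same arrays. The median member was 0.09 log2 lower in refed than in fasted knockout livers (range -0.74 to 0.68), and 63 members (64.3%) were on the lower side. Over all features the median was -0.05 and 59.7% were on the lower side, a lean in the same direction. In WT, where the rule kept the difference under 0.6, the median was 0.00 and 49 of 98 were on the lower side, against 48.4% of all features. No member passed the test in the knockout (0 of 98; limma, smallest adjusted p = 0.397), as no feature did (0%, 0 of 23238). An unadjusted p under 0.05 was found for 12 members (12.2%, against 9.59% of all features). Klhl24 (log2 difference 0.61, limma adjusted p = 0.397) and Rab43 (-0.74, limma adjusted p = 0.397) had the smallest values. Without overlap, 5 members were higher and 2 lower after refeeding (3.5% and 9.33% of all features).

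Whether the genotype difference itself depended on feeding was set out as the interaction. Its parts are the values the rule used, since the rule asked for 0.6 or more in both states and limited the WT feeding difference, so the members' counts are a description. None of the 98 members passed (limma, smallest adjusted p = 0.924), against 0% of all features, and 5 (5.10%) had an unadjusted p under 0.05, against 4.88% of all. These were Slc22a5 (knockout refeeding effect minus WT refeeding effect -0.80) and Rab30 (-0.71), with a larger fall when refed, and Tcp11l2 (0.69), Txnip (0.63) and Klhl24 (0.59), with a larger fall when fasted. The median SE of the interaction over members was 0.30 log2, and these counts do not show that the states were alike. In simulated data of 23238 features this test recovered 32% of 2-fold and 89% of 4-fold interactions. The simulated noise was independent between arrays and had the same spread in all groups, with changes placed in refed knockout arrays of randomly drawn features. The members were more variable in knockout than in WT livers and moved together within arrays, so these rates need not hold for them.

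**Figure D4:**
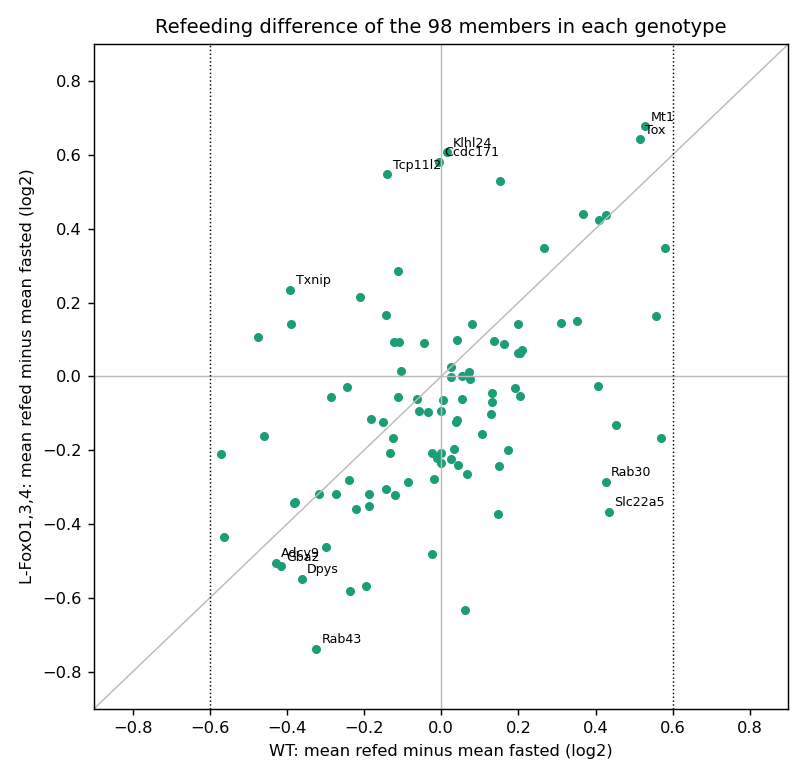
Mean refed minus mean fasted log2 value of the 98 members in WT (x) and knockout livers (y), with the limit of 0.6 on the WT difference dotted and equality as a grey diagonal. Knockout values run from -0.74 (Rab43) to 0.68, and labels mark members with a gene name whose interaction had an unadjusted p under 0.05 or whose knockout difference was 0.5 or more in either direction.

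As wider context, 33 of 36 genes listed as FoxO targets were measured under their own name, and 7 fell in the knockout over both states while 0 rose (limma, adjusted p under 0.05; 1.88% of all features fell and 2.05% rose). The list's median log2 difference was -0.32, against -0.01 over all features. At an unadjusted p under 0.05, 16 of its genes were lower and 1, Trib1, was higher (0.23), against 10.3% of all features lower and 8.79% higher. Of the 7, Angptl4, Ccng2 and Txnip are members. The other 4 fell by less than the rule asks for in at least 1 state. They were Map1lc3b, the LC3 protein of autophagosomes (log2 difference -0.65, limma adjusted p = 0.00374), Pnpla2, the triglyceride lipase ATGL (-0.61, limma adjusted p = 0.00949), Insr, the insulin receptor (-0.41, limma adjusted p = 0.0134), and Fbxo32, a ubiquitin ligase subunit (-0.30, limma adjusted p = 0.0338). Igfbp1 (-1.66, limma adjusted p = 0.0548) and Pck1 of gluconeogenesis (-0.90, limma adjusted p = 0.066) missed the threshold. Of 11 measured genes of lipogenesis and glycolysis, 3 rose, Elovl6 (log2 difference 1.67, limma adjusted p = 0.00181), Fasn (1.16, limma adjusted p = 0.0177) and Acaca (0.66, limma adjusted p = 0.0138), and 0 fell. At an unadjusted p under 0.05, 4 were higher and 2 lower, the latter being Acacb (-0.52) and Scd1 (-0.38). In WT, refed minus fasted log2 differences reached 0.6 in either direction only for Pdk4 (1.30), Cyp7a1 (-0.75) and Cyp8b1 (-2.93) of these lists. Pck1 (0.01), Igfbp1 (-0.12), G6pc (-0.21), Srebf1 (0.01) and Fasn (-0.38) stayed under it. A small WT feeding difference was thus not particular to the members.

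Markers of other liver cells were read beside the members. In the mean genotype comparison, 0 of 5 Kupffer cell, 0 of 4 endothelial, 0 of 3 cholangiocyte and 0 of 4 lymphocyte markers passed (limma), with 1, 2, 0 and 2 lower at an unadjusted p under 0.05. Over all features 10.3% were lower at an unadjusted p under 0.05, and 1.88% fell and 2.05% rose at the threshold. So few markers passing does not show that the share of these cells was unchanged. Of 4 stellate cell markers Lrat alone passed, and it was higher in the knockout (log2 difference 0.67, limma adjusted p just under 0.05). The median log2 difference was -0.22 for Kupffer, -0.25 for endothelial and -0.33 for lymphocyte markers, on the same side as the members. Mean lymphocyte marker levels per array were 5.81 to 6.38 in fasted WT and 5.58 to 5.96 in fasted knockout livers, and 6.03 to 6.34 against 5.77 to 6.05 after refeeding. Kupffer levels were 8.39 to 8.83 against 8.05 to 8.52, and 8.20 to 8.65 against 8.15 to 8.61, and endothelial levels 9.08 to 9.37 against 8.79 to 9.07, and 8.75 to 9.34 against 8.76 to 9.10. Their part in the members' differences was not tested.

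The arrays that chose the members cannot test them. As a description, each array was left out in turn, the rule was applied to the other 11, and the chosen features were read in the array left out. The opposite genotype's arrays still took part in the choice, so the reading is independent only of the left-out array. Features were chosen for extreme values in those opposite arrays, which raises the share expected even without a genotype difference. The share over all features is thus no baseline for it, and the members are not tested here. Leaving out a knockout array chose 84 to 196 features. In the array left out, those below all 3 WT arrays of the same state made up 70.9% (fasted replicate 1, against 22.9% of all features), 96.1% (replicate 2, against 27.9%) and 89.3% (replicate 3, against 26.8%). For refed replicates 1, 2 and 3 they made up 77.9%, 82.8% and 96.8%, against 39.6%, 27.4% and 36.1%. The lowest share thus belonged to fasted replicate 1, whose median difference from WT over the 196 features chosen without it was 0.37 log2. Leaving out a WT array chose 84 to 161 features. Those above all 3 knockout arrays made up 74.5%, 90.5% and 88.7% in fasted WT replicates 1, 2 and 3, against 24.1%, 30.4% and 24.7% of all features. In refed WT replicates 1, 2 and 3 they made up 80.3%, 92.6% and 87.1%, against 26.6%, 33.6% and 30.7%. Fasted WT replicate 1 had the lowest share of the WT arrays. Median differences in the left-out arrays were 0.37 to 1.11 log2 for knockout and 0.50 to 0.94 for WT arrays.

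**Figure D5:**
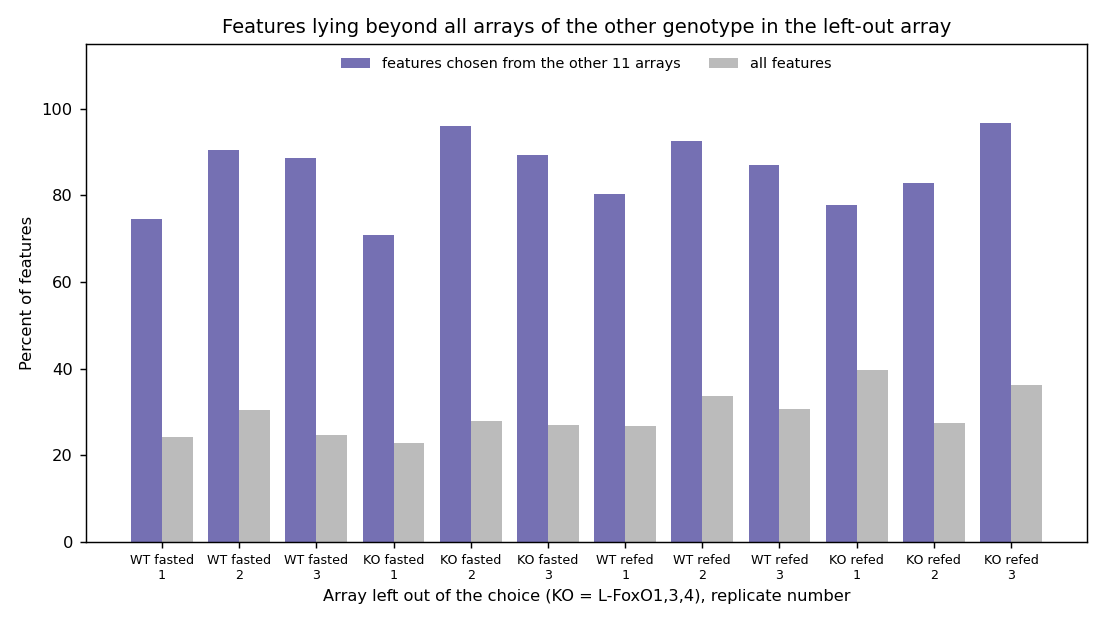
Percent of features that lie beyond all 3 arrays of the other genotype in the array left out (y), for features chosen from the other 11 arrays and for all features, per left-out array (x). Chosen features reach 70.9% to 96.8%, and all features 22.9% to 39.6%. The other genotype's arrays helped to choose the features, so the bars for all features are no baseline.

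The rule used the genotype contrasts, so how many members pass a test of them was largely fixed by the choice. The counts are given as a description and nothing is read from them. Over both states 93 of the 98 members were lower in the knockout (limma, adjusted p under 0.05; 1.88% of all features). In fasted livers alone 26 were (0.185% of all features lower and 0.697% higher), and in refed livers alone 9 were (0.0775% lower and 0.0732% higher). Leaving out 1 array moved the fasted count to between 6 (without fasted WT replicate 2) and 32 (without refed knockout replicate 1). It moved the refed count to between 1 (without refed WT replicate 2 or 3 or refed knockout replicate 3) and 55 (without refed knockout replicate 2).

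The members were spread over the order of feature IDs, from position 1219 to position 22728 of 23238. Divided into 20 equal bins, the order held 0 to 11 members per bin, with 4.9 on average and 2 bins empty. IDs below 6000000 made up 28.3% of features and 6 members (6.12%), and features without a gene entry made up 31.5% of all features and 11.2% of members. Another member lay within 10 positions for 12 members (12.2%), against 7.96% of the other features. By RefSeq order, 4 pairs of members were next to each other among measured genes: Abcg5 with Abcg8, Ccdc171 with Bnc2, Mfsd2a with Mycl, and Mycl with Trit1.

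The limits of the rule cut through a continuous range. Just inside the genotype limit were Wbp1l and Dpys, both with a smaller difference of 0.60, and just outside were an unnamed feature and Plpp2, at 0.60 too. Between 0.5 and 0.6 lay 67 features that met every other condition, and between 0.6 and 0.7 lay 33 members. On the feeding limit, Mfsd2a (0.58) and Slc8b1 (-0.57) were just inside and Lgals4 (0.60) just outside. Turned round, the rule found 154 features that were higher in the knockout in both states. With a WT feeding difference of 0.6 or more it found 9 features that were higher and 10 that were lower in refed than in fasted WT livers.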

How the data were processed

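RNA from 12 liver samples was labelled with biotin and hybridised to 1-colour arrays. Per the submitters' processing notes the authors used RMA and Partek, with no versions, filters or array coverage given. The deposited values are 1 log2 value per feature and array, a scale read from the values (1.84 to 14.2, array medians 5.79 to 5.90, 0 missing). Only these values were used, and signal over background was not analysed here, so precision rests on 3 arrays per group.

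Gene names came from GEO's platform annotation: 14939 features had 1 gene, 989 several and 7310 none. Of the 14939, 14884 had their Entrez ID in RefSeq (GRCm38.p6), and 0 symbols changed. Groups came from the labels, and replicate numbers follow accession order and pair nothing.

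The member rule was applied to deposited values. Contrasts were fitted with limma 3.58.1 in R 4.3.3 (1 mean per group, 12 arrays, 8 residual and 2.58 prior degrees of freedom, default eBayes), two-sided, with Benjamini-Hochberg adjustment over 23238 features and a threshold of 0.05. Named genes were the 25 named members with the largest smaller-of-2 difference, plus fixed lists. Members and lists were chosen with earlier results of these data known. In simulated data the refeeding contrast in the knockout recovered 62% of 2-fold and 96% of 4-fold changes among 23238 features. Its noise was independent between arrays with equal spread in all groups, so the rates need not hold for the members. Alternatives covered the rule's limits, median centring, cyclic loess, eBayes settings, array weights, dim features and each array left out.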

Additional observations from a re-analysis of the deposited data

How the results depend on the processing

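The 98 members became 165 with a difference of 0.5 log2 or more, 41 with 0.8, and 185 with overlap of arrays allowed, and ranged from 84 to 196 with 1 array left out, the highest without fasted knockout replicate 1 and 161 without fasted WT replicate 1. Of the 98, 94 met the rule after median centring and 83 after cyclic loess. The 154 features of the turned rule became 96 with a difference of 0.8 and 318 with overlap allowed, and ranged from 153 to 236 with 1 array left out. The limma counts of members in the genotype contrasts and of the FoxO list were varied after seeing the data. The shares of all features called at these settings are not given beside them. Nothing about the members or the list is therefore read from these shifts. The refed count of 9 became 54 at an adjusted p under 0.1, 15 after cyclic loess, 80 with array weights, 24 without the 30% dimmest features, and 1 to 55 with 1 array left out; 55 was without refed knockout replicate 2. The fasted count of 26 ranged from 6 to 32 and the mean count of 93 from 66 to 95 with 1 array left out. The 7 FoxO list genes that fell became 13 at an adjusted p under 0.1, 13 with array weights and 11 without the dimmest features, and ranged from 6 to 11 with 1 array left out, 11 without refed knockout replicate 2. Foxo1 passed without refed knockout replicate 3, still lower in the knockout (WT minus knockout difference 0.40). Foxo4 had no settled direction: its WT minus knockout difference was -0.033 after cyclic loess, -0.14 with array weights, and -0.15 to 0.13 with 1 array left out. The 42 member genes followed one by one kept their direction, and moved by less than 1 SD, in all 14 settings followed. The rule largely fixed this direction in advance, so keeping it is no test of these genes. The counts of 0 for refeeding in the knockout and for the interaction held in the alternatives run. No paired analysis was possible because the labels carry no replicate numbers. The cause of these shifts was not tested. Depth is unknown for array values, and 3 arrays per group limit what could be detected.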
